A study of Homo sapiens with 8 samples.

Results

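The regions described here held both IKAROS and AIOLOS, paralogous DNA-binding proteins of the lymphoid lineage, and none of MTA2, Mi2, HDAC2, OCAB and OCT2. Peaks of all 7 deposited lists that overlapped by at least 1 bp were merged into 74123 regions. Of these, 11304 held an IKAROS and an AIOLOS peak and none of the 5 other proteins, 15.3% of all merged regions and 34.3% of the 32931 regions that held the pair. They are called pair-only regions below, and they were chosen by the presence and absence of peaks in the 7 lists, so their peak heights are not independent of the choice. Each of the 11304 held exactly 1 IKAROS peak and 1 AIOLOS peak, and they took in 20.95% of the IKAROS peaks and 29.7% of the AIOLOS peaks.

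The peaks came from chromatin immunoprecipitation followed by sequencing (ChIP-seq) in 697, a human cell line established from a pre-B leukaemia and grown in medium with 10% fetal bovine serum. Each of the 7 antibodies, against AIOLOS, IKAROS, MTA2, Mi2, OCAB, OCT2 and HDAC2, had 1 library, and 1 input library was made from DNA taken without an antibody. The cells were otherwise untreated as far as the labels say, and the title of the series ties MTA2, as part of NuRD, and OCAB to the step between the pre-B and the immature B cell. Because no antibody had a replicate, no test between classes of regions was possible, and all intervals cover counting error only.

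IKAROS and AIOLOS can bind DNA as homodimers or as heterodimers with each other, through zinc fingers in the N-terminal part that contact DNA and zinc fingers at the C terminus that pair the proteins. In lymphocytes both are known to associate with NuRD, a complex that couples nucleosome remodelling to histone deacetylation. MTA2 is a scaffold subunit of NuRD, Mi2 its ATP-dependent remodeller and HDAC2 one of its deacetylases. OCT2 recognises the octamer motif of B-cell promoters, where it is joined by its coactivator OCAB. In a pair-only region no peak of these 5 was detected, and a low level and an absence cannot be told apart.

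The IKAROS library had 23.4 M tags and 53948 peaks, the AIOLOS library 16.1 M tags and 38101 peaks, and the MTA2 library 22.8 M tags and 28760 peaks. The Mi2, OCT2 and OCAB libraries had between 17.55 and 18.5 M tags and between 4440 and 10303 peaks. HDAC2 was the shallowest, with 10.9 M tags and 16125 peaks, and its list was made with a looser limit, with a highest p-value over input of 9.5e-05 against 9.98e-11 for MTA2. Of the pair-only regions, 99.8% lay on chromosomes 1 to 22 and X, 12 on Y and 9 on unplaced or alternative contigs.

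Peaks of both factors were lower in pair-only regions than where other proteins were present. Peak height is the number of tags in a peak per 10 M tags of its library. IKAROS height in pair-only regions had a median of 20.5, with the middle 50% of regions between 14.5 and 30.4, against a median of 40.6 and a range of 25.2 to 69.3 in the 21627 regions that held the pair and at least 1 other protein. AIOLOS height had a median of 18.1 (middle 50% between 13.7 and 24.9) in pair-only regions, against 32.4 (20.5 to 56.0) with other proteins. The pair-only medians were thus 0.505 times those with other proteins for IKAROS and 0.559 times for AIOLOS. Against the 7607 regions with the pair and MTA2 alone, whose medians were 32.1 and 26.8, the ratios were 0.639 and 0.675. The distributions overlapped widely, and since the lists that chose the regions also give these heights, the values are a description.

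Pair-only regions in turn stood above regions where 1 of the factors was found alone. The 16331 regions with IKAROS and no other protein had a median IKAROS height of 11.5, so that the pair-only median was 1.78 times theirs. The 3645 regions with AIOLOS alone had a median AIOLOS height of 14.9, and the pair-only median was 1.21 times theirs. Fold over input, the ratio of ChIP tags to input tags in the deposited lists, followed the same order. For IKAROS it had a median of 13.4 in pair-only regions, 24.3 in regions with other proteins and 10.0 where IKAROS was alone.

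The share of pair regions that held no other protein fell steadily with height. When the 32931 regions were put into 10 bins of equal size by IKAROS height, 69.2% of the lowest bin (heights of 5.13 to 13.7; 95% Wilson interval 67.6 to 70.7) and 2.58% of the highest bin (93.7 and above; 2.09 to 3.18) were pair-only, and each bin lay below the one before it. At the middle of the range, bin 5 (26.1 to 31.2), the share was 37.9% (36.2 to 39.5). Bins by AIOLOS height gave 65.6% in the lowest (63.9 to 67.2) and 3.04% in the highest (2.50 to 3.68). The share of regions with MTA2 ran the other way, at 22.9% in the lowest IKAROS bin and 95.02% in the highest. HDAC2 was present in 7.74% and 74.7% of these bins, OCT2 in 4.16% and 50.3%, Mi2 in 4.64% and 32.6%, and OCAB in 2.43% and 22.02%.

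**Figure D1:**
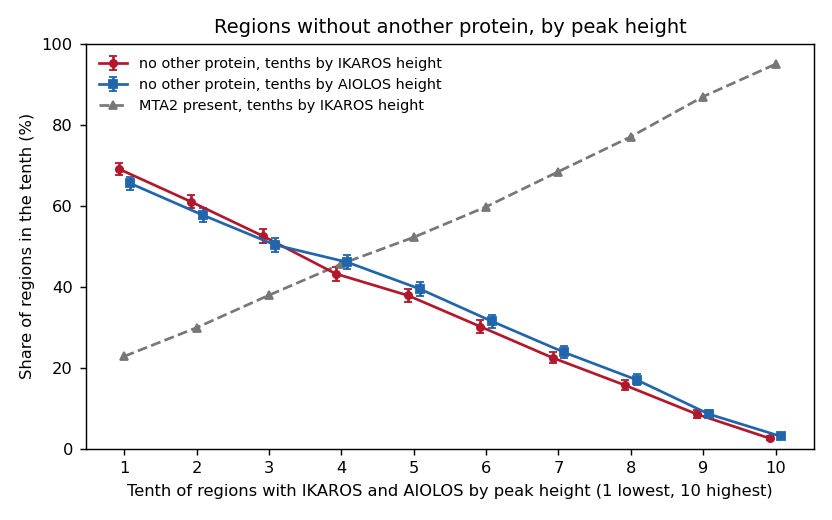
Share of regions with IKAROS and AIOLOS that held none of the 5 other proteins (circles, bins by IKAROS height; squares, bins by AIOLOS height; bars, Wilson 95% intervals) and share with an MTA2 peak (triangles), in 10 bins of equal size by peak height. The pair-only share goes down from bin to bin, to 2.58% in the highest IKAROS bin, while the MTA2 share goes up to 95.02%.

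MTA2 height in the pair regions of a bin that held an MTA2 peak can be set against the floor of the MTA2 list. None of these is a pair-only region, and MTA2 signal in pair-only regions was not measured. In the lowest IKAROS bin, MTA2 peaks had a median height of 10.5 where they were present, 0.925 times the IKAROS height of the same region, and the lowest 10% of them were at or under 7.01. In bin 3, which spans the pair-only median, the MTA2 median was 12.7 and the lowest 10% were at or under 7.88. The lowest peak in the whole MTA2 list had a height of 5.25. Signals under that floor are missing from these medians, so the values cannot show how much MTA2 the pair-only regions held. In the highest bin the MTA2 median was 35.9, at 0.241 times the IKAROS height. The part of MTA2 depth in the pair-only share was not tested.

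MTA2 was the protein whose list shaped the class most. Of the 9716 pair regions with exactly 1 other protein, 7607 held MTA2, 1196 HDAC2, 400 Mi2, 331 OCT2 and 182 OCAB. Without the MTA2 list, 18942 regions would have been pair-only, and all 11304 regions of the full set were among them unchanged. Without the HDAC2 list there would have been 12575, and without the Mi2 list 11731.

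Within pair-only regions the heights of both factors went together. The rank correlation of IKAROS and AIOLOS height across the 11304 regions was 0.770 (Spearman's rho, a description: the regions share the same pair of libraries and are not replicates), against 0.897 across the 21627 regions with other proteins, whose heights span a wider range. IKAROS height exceeded AIOLOS height in 66.8% of pair-only regions (66.0 to 67.7) and in 78.5% of regions with other proteins (77.9 to 79.0), where 74.5% of all pair regions did so. The median log2 ratio of IKAROS over AIOLOS height was 0.20 in pair-only regions and 0.32 with other proteins. In 10 bins by the geometric mean of both heights, the pair-only median lay below the other in all 10, with differences of -0.10 to -0.03. These differences are small beside the spread of single regions, which had an SD of 0.46 in pair-only regions and 0.45 with other proteins. The sign of the balance also depends on the scale: it was 0.10 from folds over input and -0.06 from folds over the surrounding sequence.

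**Figure D2:**
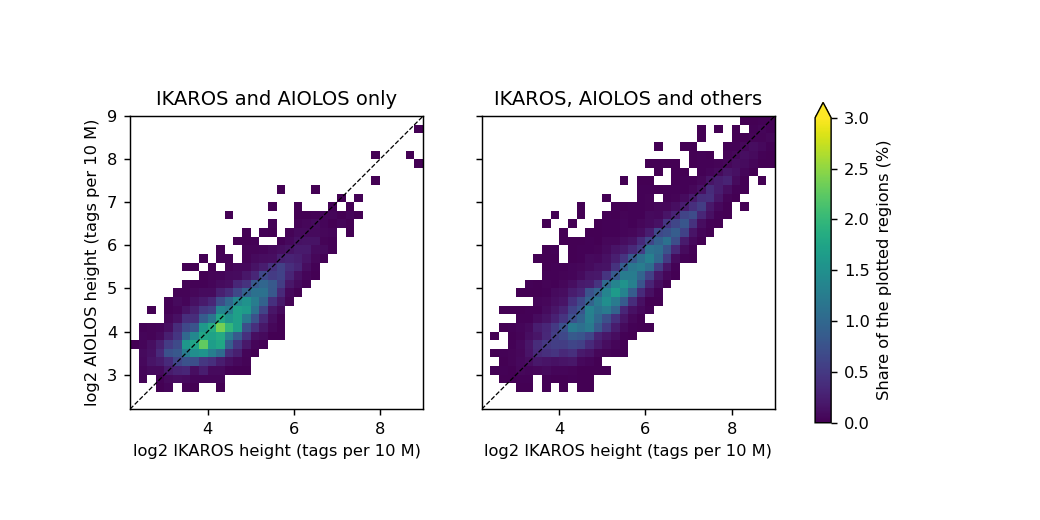
IKAROS height against AIOLOS height, both as log2 of tags per 10 M, in pair-only regions (left) and in regions with the pair and at least 1 other protein (right). Colour gives the share of the plotted regions in each square, the dashed line marks equal heights, and 69 regions of the right panel with a height of 512 or more lie outside it. Pair-only regions gather at low heights along the line, and few reach the upper right.

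Few pair-only regions leaned far to 1 factor. IKAROS height was at least 2-fold AIOLOS height in 333 of them, or 2.95%, against 3.71% of all pair regions. AIOLOS height was at least 2-fold IKAROS height in 121, or 1.07%, against 1.14% of all pair regions. Neither share exceeded that of all pair regions. The median pair-only region had 48 IKAROS tags and 29 AIOLOS tags, which gives the log2 ratio a counting error of 0.34. The log2 ratio lay more than 1.96 counting errors from the median of all pair regions (0.29) in 15.2% of pair-only regions and in 23.7% of regions with other proteins, against 20.8% overall. The median counting error was 0.34 in pair-only regions and 0.25 in the others, so these shares were measured against unequal errors, and the lower one does not show a narrower spread of the ratio.

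The pair-only region with the strongest lean to IKAROS, among those whose higher peak was above 21.8, lay on chromosome 4, 88071967 to 88072264 (hg19, as all coordinates here). Its IKAROS height was 49.6 (exact Poisson 95% interval 40.998 to 59.5), against 14.3 (9.07 to 21.5) for AIOLOS, a log2 ratio of 1.79 with a counting error of 0.33. It stood far from other proteins, with the nearest such peak 69137 bp away. On chromosome 7, 158402235 to 158402519, the heights were 28.7 for IKAROS and 8.71 for AIOLOS. On chromosome 5, 36360519 to 36360831, they were 39.8 and 12.4, on chromosome 2, 204773993 to 204774314, they were 47.5 and 15.6, and on chromosome 10, 61431965 to 61432265, they were 26.5 and 8.71. In all 5 the AIOLOS peak was at least 5.51-fold over input, in a list whose lowest fold was 4.08. On fold over input the region on chromosome 10 leaned the other way, at 11.3 for IKAROS and 18.5 for AIOLOS. The others leaned to IKAROS on that scale too.

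The strongest lean to AIOLOS was on chromosome 14, 96968174 to 96968538, where IKAROS stood at 22.7 (16.98 to 29.7) and AIOLOS at 97.7 (83.03 to 114.3), a log2 ratio of -2.11 with a counting error of 0.23. An MTA2 peak of height 37.2 began 19 bp beyond its edge, so its place among the pair-only regions rests on that distance. On chromosome 5, 86563471 to 86563769, heights were 50 for IKAROS and 166.8 for AIOLOS, and an HDAC2 peak of height 9.16 lay 20 bp away. The others were on chromosome 8, 145980888 to 145981163 (IKAROS 10.7, AIOLOS 43.0), on chromosome 7, 1704471 to 1704791 (IKAROS 12.4, AIOLOS 43.6), and on chromosome X, 46771712 to 46771984 (IKAROS 6.84, AIOLOS 22.4). The last had an OCAB, OCT2 or NuRD peak no nearer than 7720 bp.

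The factors were centred on nearly the same point. The centres of the IKAROS and AIOLOS peaks of a pair-only region lay a median of 36 bp apart, with the middle 50% of regions between 16 and 66 bp and the largest distance 264 bp. In regions with other proteins the median was 31 bp (14 to 61 bp). At like height the order turned: in 10 bins by the geometric mean of the heights, the pair-only median was the smaller in 9, by 3 to 9 bp, and the larger in the highest bin, at 23 against 18 bp. IKAROS lay to neither side of AIOLOS along the chromosome, with a median signed distance of 0 bp. The median pair-only region was 300 bp wide, close to the 272 bp of an IKAROS peak and the 256 bp of an AIOLOS peak, which is the width of every peak in these lists but 1 IKAROS and 1 AIOLOS peak. Those lay at the start of an unplaced contig and made the narrowest pair-only region, of 145 bp.

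Peaks in pair-only regions were about as compact as others of their height. The focus ratio, HOMER's measure of how tightly the tags gather at the centre of a peak, had a median of 0.783 for IKAROS and 0.808 for AIOLOS in pair-only regions, against 0.775 and 0.792 with other proteins. In 9 of 10 bins by geometric mean height the pair-only median was the higher for both factors, by at most 0.027 for IKAROS and 0.034 for AIOLOS, and in the highest bin the differences were -0.048 and -0.042. These are small beside the middle 50% of pair-only regions, which spanned 0.723 to 0.837 for IKAROS.

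Pair-only regions were not remote from the other proteins. The median edge-to-edge distance to the nearest peak of MTA2, Mi2, HDAC2, OCAB or OCT2 was 8722 bp, against 14456 bp for IKAROS-alone and 3418 bp for AIOLOS-alone regions. Within 1000 bp of such a peak lay 17.5% of pair-only regions, 11.7% of IKAROS-alone and 30.2% of AIOLOS-alone regions, against 15.9% of the 3 classes together. Within 10000 bp lay 53.1%, 40.7% and 67.6%, against 48.3% together. Of the 6004 pair-only regions with such a neighbour within 10000 bp, the nearest was MTA2 in 45.6%, HDAC2 in 24.8%, Mi2 in 16.7%, OCT2 in 7.36% and OCAB in 5.61%. These lists make up 42.4%, 23.8%, 15.2%, 12% and 6.55% of the peaks of the 5 proteins, so the order of neighbours followed the length of the lists, with OCT2 below its part.

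**Figure D3:**
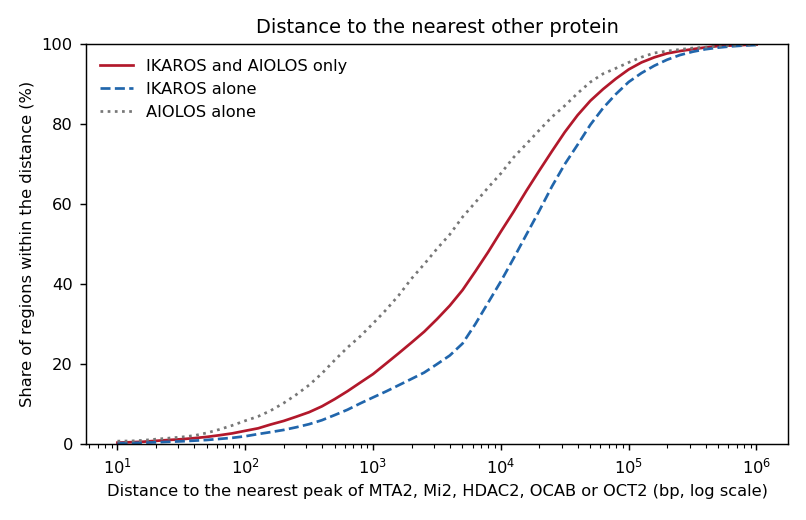
Share of regions whose nearest peak of MTA2, Mi2, HDAC2, OCAB or OCT2 lay within the distance on the horizontal axis (log scale, in bp), for pair-only, IKAROS-alone and AIOLOS-alone regions. The pair-only curve runs between the others, with 53.1% of its regions within 10000 bp.

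How pair-only and IKAROS-alone regions compared depended on IKAROS height. Among regions with an IKAROS height under 10, 31.0% of pair-only regions (27.8 to 34.4) and 29.4% of IKAROS-alone regions (28.3 to 30.5) had another protein within 10000 bp. From 10 to under 15, the shares were 42.2% of pair-only (40.1 to 44.4) and 39.7% of IKAROS-alone regions (38.4 to 41.0). From 15 to under 20 the shares were 48.4% of pair-only (46.5 to 50.4) and 51.5% of IKAROS-alone regions (49.6 to 53.3). The intervals overlapped in this range and in each lower one, so no order is read from them. From 20 to under 30, 55.4% of pair-only (53.7 to 57.2) and 62.8% of IKAROS-alone regions (60.3 to 65.2) did. From 30 to under 50 it was 64.0% of pair-only (61.9 to 66.0) and 82.0% of IKAROS-alone regions (77.3 to 85.9), and at 50 and above 79.6% of 774 pair-only (76.6 to 82.3) and 97.1% of 68 IKAROS-alone regions (89.9 to 99.2). In the 3 ranges from 20 upwards a smaller share of pair-only than of IKAROS-alone regions had another protein that near. The intervals cover counting error of regions from the same libraries and are no test between the classes. The part of height in the shorter median distance of the whole class was not tested.

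Tall pair-only regions were found mostly next to places that held the other proteins. In the lowest of the 10 bins by IKAROS height, 9.44% of pair-only regions (8.30 to 10.7) had a peak of another protein within 1000 bp and 38.2% (36.2 to 40.2) within 10000 bp. In the highest bin, 45 of 85 had one within 1000 bp, or 52.9% (42.4 to 63.2), and 78 within 10000 bp, or 91.8% (84.0 to 96.0). The median distance was 15350 bp in the lowest bin and 755 bp in the highest. Pair-only regions within 1000 bp of another protein had median heights of 26.1 for IKAROS and 21.8 for AIOLOS, against 18.4 and 16.2 for those beyond 10000 bp. In IKAROS-alone regions the share within 10000 bp rose with IKAROS height too, as given above. No peak of either factor in pair-only regions was under 4-fold over its surroundings. The part of such a limit in these trends was not tested.

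The median fold of a peak over its surrounding sequence was lower in tall pair-only regions than in the other tall regions. Single regions varied: the tallest beyond 10000 bp of another protein, described below, had an IKAROS local fold of 41.9. In the highest bin by IKAROS height the median local fold of the IKAROS peak was 11.2 in pair-only regions and 27.3 in regions with other proteins. That of the AIOLOS peak was 11.3 and 28.2. This bin has no upper limit, and heights in it were not alike, with median AIOLOS heights of 87.8 and 106.4. In bin 9, which has an upper limit, the IKAROS local folds were 12.55 and 20.46. In bin 5 the IKAROS values were 13.6 and 13.8, and in the lowest bin 9.32 and 8.30. From bin 7 to bin 10 the pair-only value went down while the other went up. Local fold also moved with nearness. It had a median of 8.50 for IKAROS in pair-only regions within 1000 bp of another protein, 8.97 from there to 10000 bp, and 15.3 beyond.

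**Figure D4:**
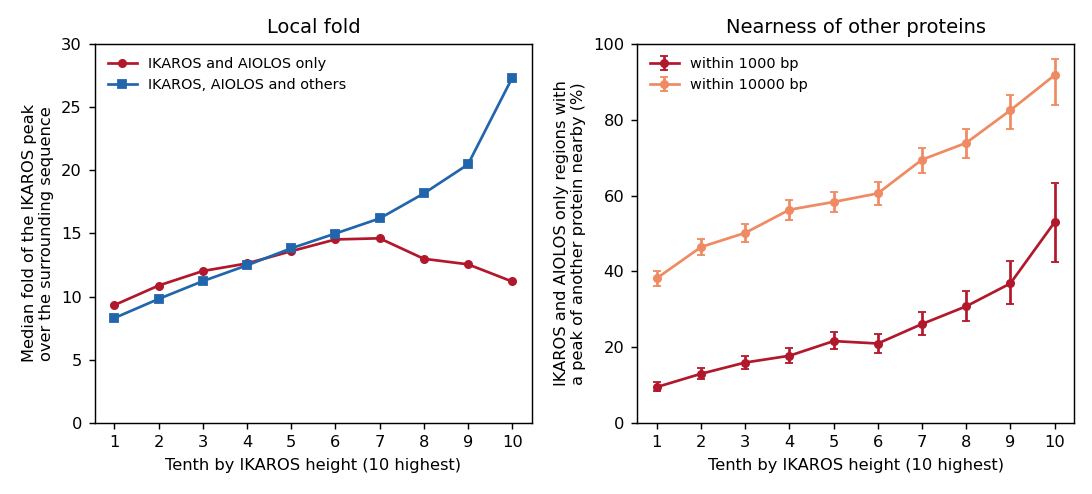
Left, median fold of the IKAROS peak over its surrounding sequence in pair-only regions (circles) and in regions with the pair and other proteins (squares). Right, share of pair-only regions with a peak of another protein within 1000 bp (dark) or 10000 bp (light), with Wilson 95% intervals. Both panels use 10 bins by IKAROS height over all pair regions. The median local folds part in the upper bins, to 11.2 and 27.3 in the highest, which has no upper limit of height. Most pair-only regions in the upper bins have another protein nearby.

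The 10 tallest pair-only regions by geometric mean show this neighbourhood. The first lay on chromosome 1, 230258300 to 230258573, with heights of 477.3 (449.7 to 506.2) for IKAROS and 397.2 (366.9 to 429.1) for AIOLOS. Beginning 414 bp away was a region with heights of 594.5 for IKAROS, 405.2 for AIOLOS, 99.0 for MTA2 and 52.9 for OCT2. The peak of 477.3 had a local fold of 6.70 and was 112.7-fold over input. On chromosome 13, 112963392 to 112963763, the pair-only heights were 455.5 for IKAROS and 243.4 for AIOLOS, and a region 448 bp away held IKAROS at 453.8, AIOLOS at 224.1 and MTA2 at 162.0. On chromosome 9, 126102073 to 126102364, heights of 175.4 and 137.6 stood 315 bp from a region with other proteins. That region held IKAROS at 446.5, AIOLOS at 331.2, MTA2 at 69.2, and HDAC2 and OCT2 at 31.1 each. On chromosomes 1 and 9 the neighbour was the taller in IKAROS, while on chromosome 13 the IKAROS heights lay within each other's counting error.

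Elsewhere the neighbour held the other proteins without the pair. On chromosome 7, 101499669 to 101499941, heights of 176.2 for IKAROS and 111.4 for AIOLOS lay 3 bp from a region of MTA2 (53.4), HDAC2 (24.7), OCAB (21.1) and OCT2 (15.8). On chromosome 5, 400139 to 400453, heights of 160.0 and 121.4 stood 1573 bp from a region of all 3 NuRD subunits, with MTA2 at 336.7, Mi2 at 94.0 and HDAC2 at 66.0. On chromosome 12, 6335514 to 6335788, heights of 171.1 and 131.3 lay 1401 bp from MTA2 at 35.0 and HDAC2 at 27.5. The remaining of the 10 tallest were on chromosome 14, 107179809 to 107180095 (IKAROS 242.5, AIOLOS 186.7), and chromosome 17, 10022765 to 10023037 (IKAROS 138.1, AIOLOS 135.7), both within 3010 bp of MTA2, and at a pair of places described next.

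Those were both on chromosome 17 and had a high input. At 41400125 to 41400417 the IKAROS height was 422.1 and the AIOLOS height 287.6, but the IKAROS peak held 143 input tags, where the median pair-only IKAROS peak held 3, and the folds over input were 6.27 and 4.50. At 41466053 to 41466334 the heights were 233.1 and 267.7 with 80 input tags and folds of 6.19 and 7.29, and an OCAB peak of height 143.0 lay 212 bp away. They were the only 2 pair-only regions with 50 or more input tags in the IKAROS peak, and 1 region with other proteins had as many. Their folds over input lay below the pair-only medians of 13.4 for IKAROS and 12.6 for AIOLOS, while their heights ranked 2 and 4 among all pair-only regions. A smaller difference in input ran through the class. In all 10 bins by IKAROS height, the median IKAROS fold over input was lower in pair-only regions, at 20.7 against 26.4 in bin 8. In bins by geometric mean height, their median input tags in the IKAROS peak were higher in 9, at 6 against 4 in bin 8. The lowest bin had 2 in both classes, and the cause was not tested.

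Tall pair-only regions away from all other proteins were few. In the highest bin by IKAROS height, 7 of 85 lay beyond 10000 bp of any peak of the 5. Regions beyond that distance are named here in order of geometric mean height, and were chosen after their values were seen. The tallest was on chromosome 2, 151480431 to 151480707, with heights of 129.2 for IKAROS and 106.4 for AIOLOS. It had local folds of 41.9 and 47.7, folds over input of 21.1 and 17.4, and no other protein within 137309 bp. The next was on chromosome 11, 57173999 to 57174277, with heights of 109.9 and 91.5 and a distance of 17986 bp. The third was on chromosome 8, 8203941 to 8204247, with heights of 96.7 and 81.5 at 12347 bp. On chromosome 17, 46868411 to 46868694, the heights were 114.6 and 67.9 at 15858 bp. On chromosome 11, 75946533 to 75946842, they were 87.7 and 88.4 at 22781 bp, with IKAROS under the 93.7 at which the highest bin begins. Local folds of these 5 differed widely, at 9.28 and 13.3 in the last, 19.6 and 22.6 in that on chromosome 8, and 25.7 to 52.2 in the others.

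Among pair regions as a whole, pair-only and shared ones were interspersed. The nearest other region with the pair was itself pair-only for 35.7% of pair-only regions (34.9 to 36.6) and for 32.9% of those with other proteins (32.3 to 33.5), against 34.3% of all pair regions. The median distance to that neighbour was 12042 bp for pair-only regions and 10584 bp for regions with other proteins. Where a region with the pair and other proteins was the nearest and lay within 10000 bp, the pair-only region was the lower in 2581 of 3371 cases, or 76.6%. Their median geometric mean height was 22.6, against 35.6 for the neighbours, which belong to a taller class throughout.

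Dense runs were short. The most pair-only regions in a window of 100000 bp was 8, reached on chromosome 12 from 56094511, on chromosome 16 from 87840396 and on chromosome 19 from 54876414. Each of these windows held 18 merged regions, of which 13, 13 and 14 held the pair. Heights there were ordinary, with IKAROS between 13.3 and 62.0, between 10.7 and 54.3, and between 11.1 and 38.5. At the other end, the pair-only region farthest from any other peak lay on chromosome 14, 19465181 to 19465528, with 1308377 bp to the next, followed by chromosome X, 145814910 to 145815189 (1166083 bp), and chromosome 4, 30621301 to 30621638 (993958 bp). Their IKAROS heights were 13.7, 17.1 and 8.13 and their AIOLOS heights 16.2, 11.2 and 10.6. The median distance of a pair-only region to the next region of any kind was 4500 bp.

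The pair-only share differed between chromosomes, and is set here beside the share that the mix of IKAROS heights would give. The share among pair regions ran from 28.7% on chromosome 22 (25.7 to 31.9) to 43.0% on X (39.3 to 46.7) over chromosomes 1 to 22 and X. X also had the lowest IKAROS heights of these, with a median of 24.4 over all its pair regions, and the mix of heights there would have given 42.7%. The heights come from the lists that chose the regions, and their part in the share was not tested. On chromosome 22 the mix would have given 32.8%, and the observed number was 0.873 times that. The next lowest ratios were 0.897 on chromosome 21, 0.901 on chromosome 16 and 0.932 on chromosome 19, and the highest on an autosome was 1.06, on chromosome 5. The 12 pair-only regions on Y, of 24 with the pair, are too few to place. Within 1 Mb of the outermost peaks of a chromosome the share was 30.3% (27.7 to 33.1) and farther in 34.4% (33.9 to 35.0), where heights alone would have given 33.4% and 34.4%.

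**Figure D5:**
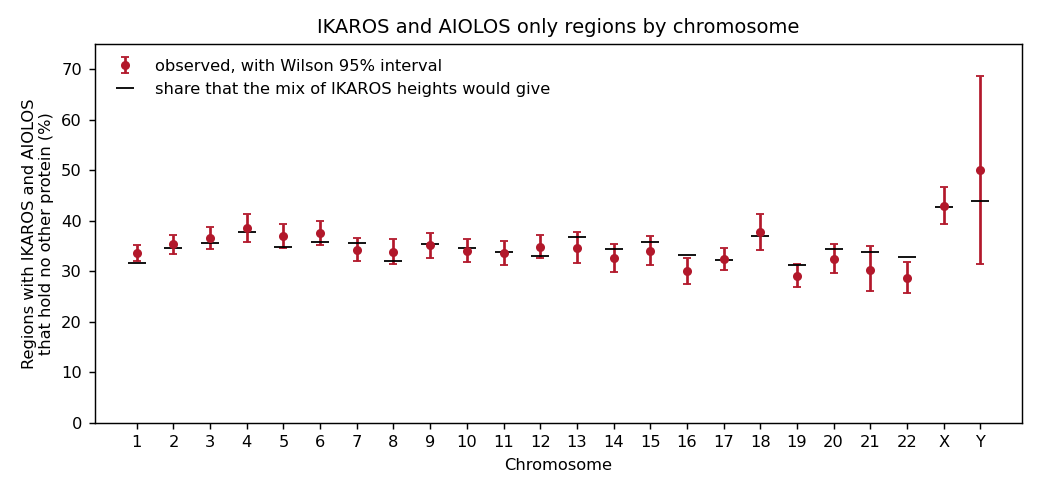
Share of regions with IKAROS and AIOLOS that held none of the 5 other proteins, by chromosome (circles with Wilson 95% intervals), and the share that the chromosome's mix of IKAROS heights would give from the 10 bins over all pair regions (dashes). Y, with 12 of 24 regions, has the widest interval; among the others X stands highest at 43.0%, with a dash at 42.7%, and chromosome 22 lowest at 28.7%, below its dash at 32.8%.

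The rule that made the class rests on an overlap of 1 bp, and few regions sat at that edge. In 126 pair-only regions the IKAROS and AIOLOS peaks overlapped by 50 bp or less, with median heights of 15.8 and 14.9. The 3 with the least overlap, of 1 or 2 bp, were on chromosome 6, 26311705 to 26312233, chromosome 10, 26986047 to 26986574, and chromosome 14, 100149465 to 100149992, and they were also the widest, at 527 or 528 bp. Just outside, 124 IKAROS-alone regions lay within 50 bp of an AIOLOS peak without touching it, with a median IKAROS height of 18.4. On the side of the other proteins, 204 pair-only regions lay within 50 bp of such a peak, with median heights of 29.1 and 26.1, and 259 regions had one that overlapped the pair by 50 bp or less, with 29.5 and 23. The closest were 2 bp away, a Mi2 peak beside chromosome 17, 33564106 to 33564566, a Mi2 peak beside chromosome 16, 57526246 to 57526558, and an HDAC2 peak beside chromosome 13, 111008509 to 111008824.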

How the data were processed

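The submitters' processing notes name hg19 as the build, with HOMER 4.9.1, Bowtie2 2.3.2.2 and CASAVA (1.8.2, and 1.4 in the case of HDAC2). No molecular identifiers are mentioned in the labels' protocols. The lists hold HOMER findPeaks columns, 1 list per library. The authors deposited height as a signal, tags in the peak per 10 M tags, and input tags as a signal. The authors deposited ratios as fold over input, over the surroundings and over distinct positions, HOMER's p-values, the focus ratio as a fraction, and a peak score. Tag counts are deposited as whole numbers for 5 lists and scaled to the input for IKAROS and MTA2. Limits of peak calling were read per the file headers for HDAC2 alone; for the other lists the sources used here give none.

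Depth was recovered from tags over height, and for IKAROS and MTA2 from the steps between low heights. Coordinates were read as inclusive. A region's height is that of its highest peak in the list. Regions are named by a rule on height, balance, overlap, distance, width, isolation and density; the members, classes and rule were chosen with earlier results of these data known. Merging and distances were tested on simulated peaks. Alternatives changed how peaks were joined, the limits on peaks and the lists used. Intervals of shares are Wilson 95% intervals. The annotation and promoter sequences at hand are on GRCh38, another build, so genes, promoters, motifs and sequences of the regions were not analysed here. Python 3.11.15, numpy 2.4.6, pandas 2.3.3, scipy 1.17.1 and matplotlib 3.10.9 were used.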

Additional observations from a re-analysis of the deposited data

How the results depend on the processing

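The number of pair-only regions, 11304, stayed between 9325 and 12575 under 10 of 11 ways of joining and choosing peaks; without the MTA2 list, added after the data were seen, it was 18942. The regions themselves changed more than their number: 8061 of 12295 at 8-fold over input and 10040 of 11816 with peak centres within 100 bp were identical to pair-only regions of the full set. At 8-fold over input in every list the median heights were 27.8 for IKAROS and 23 for AIOLOS. The IKAROS median was 21.4 at a common p-value limit of 1e-10 and also 21.4 without the HDAC2 list, and 19.7 with no other protein within 1000 bp. The pair-only share of the lowest height bin was 65.6% in bins by AIOLOS height, 70.8% under that p-value limit and 62.6% with no other protein within 1000 bp, where that of the highest bin was 1.22%. The log2 balance of IKAROS over AIOLOS was 0.096 on fold over input and turned to -0.064 on fold over the surroundings; the cause was not tested. The median distance to another protein was 13960 bp from MTA2 peaks alone and 10000 bp without the HDAC2 list. The other 19 of 33 alternatives left their values as they were within the interval or the 1.5-fold margin. The exclusion within 1000 bp, as applied to heights and shares, and the reading of edges on the same base as apart were also chosen after seeing the data. No paired analysis was possible because each antibody had 1 library. The shallow HDAC2 library and the floor of the MTA2 list limit what absence of a peak shows.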

Other observations

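The distance from a region to the nearest peak of another protein had a step near 5 kb in regions with IKAROS alone and not in pair-only regions. Of pair-only regions, 3.77% lay at 4 to 5 kb and 3.61% at 5 to 6 kb. Of IKAROS-alone regions, 2.91% lay at 4 to 5 kb and 3.78% at 5 to 6 kb, and of AIOLOS-alone regions 4.23% and 2.80%. The header of the HDAC2 list gives a window of 10000 bp for the local filter of peak calling, and the part of such a filter in the step was not tested.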
